A study of Danio rerio with 36 samples.

Results

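In wild-type zebrafish of 1 month, 193 genes stood out by transcript levels that were far higher in the dissected retinal pigment epithelium (RPE) than in the retina or in the sclera with choroid. They were found by taking the median TPM (a transcript level scaled for gene length and for the library's total) of the 3 wild-type libraries of each tissue. Genes with an RPE median of at least 10 TPM, 9934 of 31916 in the tables, were ranked by a score, log2 of the RPE median plus 1 over the higher of the retinal and scleral medians plus 1. The first 200 ranks were kept, and 7 pigment genes among them (tyr, dct, pmela, tyrp1a, tyrp1b, slc24a5 and oca2) were left out. The 9 wild-type libraries of dissected tissue therefore chose the members, so the members' levels there are a description only. The other 27 libraries had no part in the choice.

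The RPE is a single layer of pigmented cells behind the photoreceptors. It takes up retinol, converts it back to the light-sensitive chromophore and returns it to the photoreceptors in the visual cycle, and it moves ions, water and nutrients between the choroidal blood and the retina. Its melanin granules absorb stray light. In human eyes, MFRP, TMEM98 and MYRF, all among the 193 genes, have been tied to extreme smallness of the eye.

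By its title, the series concerns how LRP2 on RPE cells and BMP activity relate to eye size and refraction. Homozygous lrp2 mutants (lrp2-/-) and wild-type fish, whose libraries carry the name ZDR, were each sampled at 1 month as dissected RPE, dissected retina, choroid with sclera, and whole eyes. At 5 days post-fertilization, whole eyes came from larvae with an hsp70l:eGFP-bmp4 transgene, from larvae with an hsp70l:shha-eGFP transgene, and from a wild-type control group for each of these lines. Each of the 12 groups had 3 libraries, 36 in all. The hsp70l promoter is heat-inducible and not confined to the eye, and no heat-shock scheme is given in the sources used here. Whether the libraries of a group came from separate fish is not in the labels, so p-values measure library-to-library spread that may be technical.

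Expected counts summed to between 17543343 and 26708466 per library. LRP2 was at 9.42 ± 3.08 TPM in mutant RPE and 10.69 ± 0.46 TPM in wild-type RPE (SD, n = 3 each), so its level did not check the genotype labels, while BMP4 was at 133.25 ± 14.31 TPM in bmp4 transgenic larvae and 3.68 ± 0.2 TPM in their controls. The RPE dissections held other tissue in uneven amounts. Red-cell markers summed to 2651.9 to 4718.8 TPM in mutant RPE and 15665.1 to 19493.9 TPM in wild-type RPE. Rod markers summed to 1946.5 to 5579.0 TPM in mutant RPE and 2861.7 to 16795.6 TPM in wild-type RPE, and corneal markers to 1876.8 to 28951.4 TPM in mutant RPE and 10187.6 to 11942.8 TPM in wild-type RPE. Mutant RPE library 21 correlated no better with its own group than with wild-type RPE (median r over genes 0.916 and 0.918). Library 13 of the shh transgenic group stood apart from the other libraries of that group (mean r 0.857). Capital letters mark symbols of human orthologues.

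The 193 genes held visual cycle and pigment genes that define the RPE, beside genes known from blood and other cells. By hand, after their values had been seen, 12 were put under retinoid and visual cycle, 8 under lipid binding and storage, 11 under pigment granule, 30 under transport and channels, and 15 under signals and transcription factors. A further 8 belong to iridophores (silvery purine-crystal cells) and purine metabolism, 8 to blood vessels and thrombocytes, 14 to red blood cells and 3 to muscle, and 84 had no such label. In the 9 libraries that chose them, scores ran between 3.20 and 7.05 with a median of 3.89. The retinoid genes had the highest median score of these groups, 5.73, then the lipid genes with 4.91 and the red-cell genes with 4.86. The other groups had medians of 3.51 to 4.01.

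FABP1 (ENSDARG00000019357), a fatty-acid-binding protein known from liver, held the first rank. The next were ambp, which encodes the precursor of a plasma heme-binding protein and a protease inhibitor, rdh5, a retinol dehydrogenase that completes the chromophore, RPE65 (ENSDARG00000007480), the isomerase of the visual cycle, fabp4b, an adipocyte-type fatty-acid-binding protein, and rgrb, an opsin of the RPE. STRA6, the cell-surface receptor for retinol-binding protein, was at rank 9, rlbp1b, which carries the chromophore, at rank 11, and LRAT, which esterifies retinol, at rank 19. The threshold cut through a dense stretch. The last 5 genes inside included prlh and ENSDARG00000101146, with scores of 3.20 to 3.21, and the first 5 outside, WNT16, si:dkey-85n7.8, tlcd4b, PLS1 and arhgef33, had 3.19 to 3.20. The highest wild-type RPE medians belonged to red-cell genes, the globins HBE1 (ENSDARG00000089087) with 28713.4 TPM and hbaa1 with 17801.89 TPM, ahead of rgrb with 4991.31 TPM and rlbp1b with 3622.19 TPM.

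**Figure D1:**
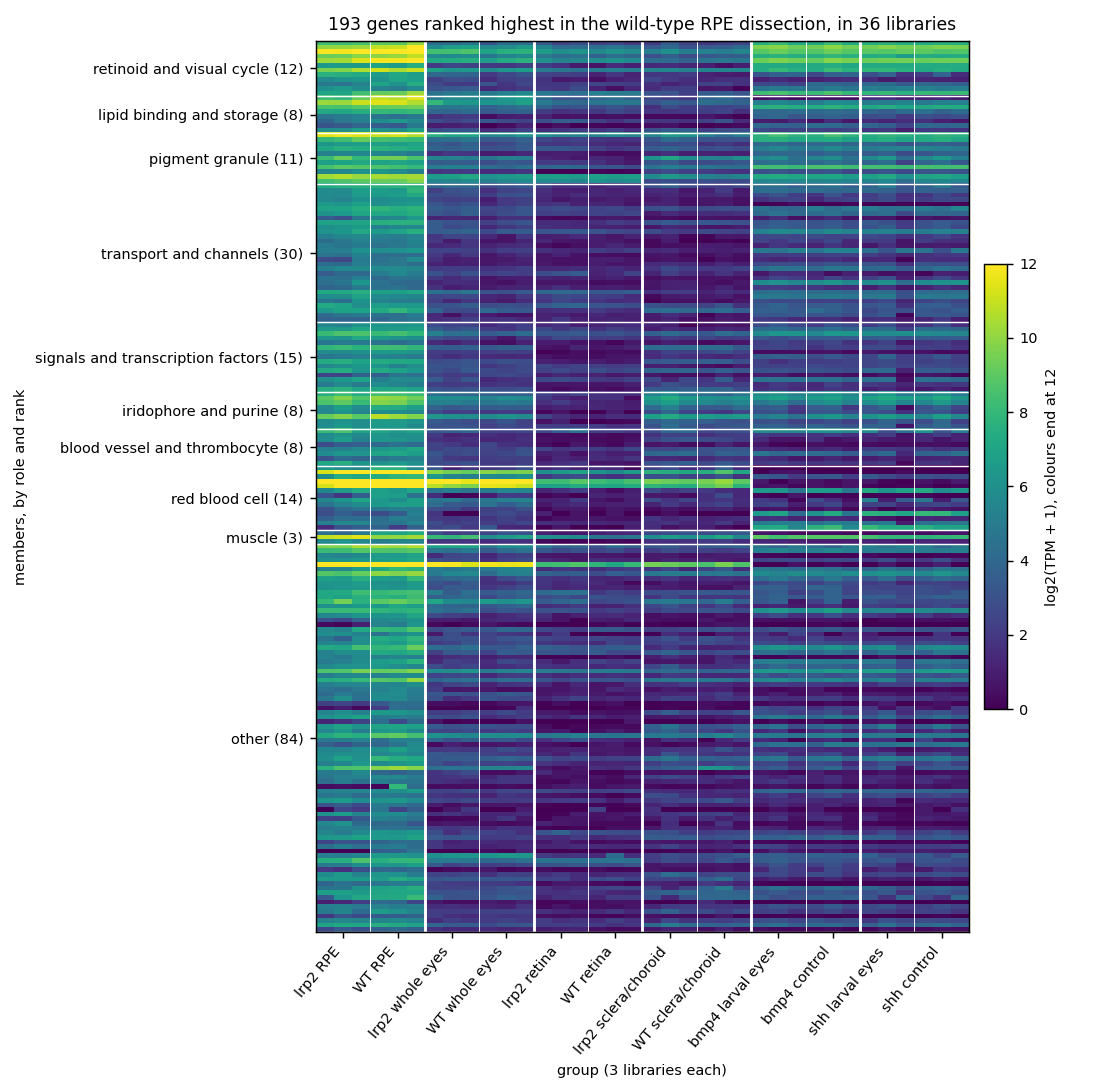
Level of the 193 genes (rows, grouped by role and ordered by rank) in each of the 36 libraries (columns, by group, mutant or transgenic left of their controls), on a log2(TPM + 1) color scale that ends at 12. In mutant RPE 171 of the genes have a median of at least 10 TPM. The median gene lies at 54.68 TPM in mutant RPE and 77.81 TPM in wild-type RPE, and at 6.2 TPM in mutant eyes and 4.17 TPM in wild-type eyes.

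The RPE preference was measured again in the mutants, whose 9 dissected libraries the rule did not use. Of the 193 genes, 188 (97.4%) were higher in each mutant RPE library than in every mutant retina and sclera library. The same was true of 2506 of the 10724 genes with at least 10 TPM in mutant RPE (23.4%). By edgeR's quasi-likelihood test with Benjamini-Hochberg adjustment over all genes, 185 of the 186 members tested were higher in mutant RPE than in mutant retina, against 36.8% of all genes tested, with a median log2 difference of 5.24. Against mutant sclera, 185 of 186 were higher, against 22.2% of all genes, with a median of 4.05, and the gene that missed the threshold was hbae1.2, an embryonic globin (log2 difference 2.45, adjusted p = 0.0635). None was lower in either test, while 33.5% and 21.2% of all genes were. The filter on low counts left 7 members untested. Members low in retina and sclera could pass it only through mutant RPE, so the filter itself favoured higher calls here.

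The visual cycle genes kept wide margins in the mutants. For rgrb, the levels were 3795.8, 3564.33 and 5865.83 TPM in mutant RPE, against 95.51, 61.49 and 72.72 TPM in mutant retina and 33.53, 64.74 and 32.69 TPM in mutant sclera. The groups were far apart, with log2 differences of 6.02 (SE 0.43, adjusted p = 7.4e-06) from retina and 6.43 (adjusted p = 4.4e-05) from sclera in edgeR's test. RPE65 was at 1055.1, 1108.09 and 1177.89 TPM in mutant RPE and 41.38, 17.06 and 18.39 TPM in mutant retina (log2 difference 5.60, SE 0.49, adjusted p = 2.25e-05). Its reads may be shared with the close copies of RPE65 in the fish genome, as may those of the globins and of lratb.1 and lratb.2.

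The order within the list shifted with the genotype. Run on the mutant libraries, the same rule gave 193 genes, of which 112 were shared (58.0% of each list). The members' scores in mutants lay between -0.46 and 5.85 with a median of 3.47, and 171 still had at least 10 TPM in mutant RPE. The score's median in mutants was 4.86 for the retinoid genes, 4.75 for the lipid genes and 3.83 for the pigment granule genes, against 5.73, 4.91 and 4.01 in wild type. It was 3.79 for red-cell genes and 2.35 for iridophore genes in mutants, against 4.86 and 3.83 in wild type. All but 2 members kept a positive score in mutants. The sulfotransferase gene sult3st3, with a score of -0.10, had a median of 0.00 TPM in mutant RPE and 12.26 TPM in wild-type RPE. The lowest score belonged to si:ch211-155m12.1, with 0.30, 0.40 and 0.29 TPM in mutant RPE and 0.12, 245.06 and 18.26 TPM in wild-type RPE. Wild-type library 12 held by far the highest level of that gene. Among the lowest positive scores was that of ctsll, a cathepsin-L-like protease gene, with a median of 0.43 TPM in mutant RPE and 16.16 TPM in wild-type RPE.

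**Figure D2:**
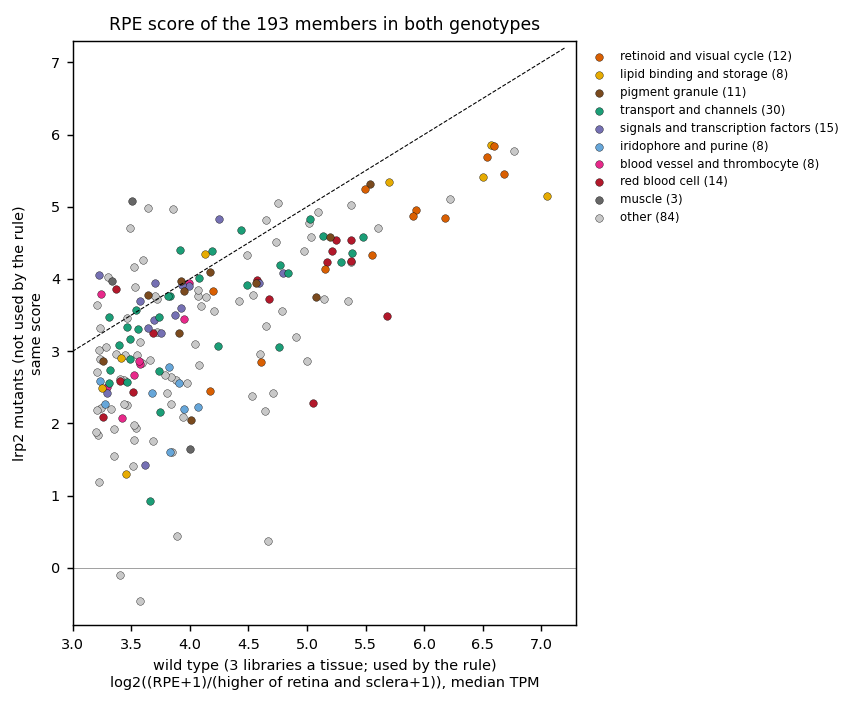
RPE score of each of the 193 genes in lrp2 mutants (vertical axis) against the score in wild type that chose it (horizontal axis, at least 3.20 by the rule), colored by role, with a dashed line where the scores are equal. Of the 193 points, 191 lie above 0 in mutants, and the lowest is si:ch211-155m12.1 at -0.46.

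In the direct comparison of mutant with wild-type RPE, the members leaned lower, which the rule itself favours because it took genes that were high in these wild-type libraries. In edgeR's test, 0 of 191 members were higher and 15 lower, against 0.574% higher and 0.798% lower among all genes tested. The members' median log2 change was -0.72, against 0.03 for all genes, and 156 were negative. On scaled counts, every mutant library was below every wild-type library for 85 members and above for 10, against 12.6% and 11.2% of all genes. On the scale of log2(TPM + 1), the median of all genes was 0.15 and that of the members -0.52. Nothing is read from these counts. The same limit holds for each single gene and gene group compared below between mutant and wild-type RPE.

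The 15 genes that edgeR called lower in mutant RPE were of mixed function. For hbaa1, an adult alpha globin, the levels were 2416.45, 4124.85 and 4286.35 TPM in mutant RPE and 17801.89, 18630.04 and 14827.22 TPM in wild-type RPE. The groups were well apart, with a log2 change of -2.40 (SE 0.26, adjusted p = 0.0236). DAO (ENSDARG00000035601), which oxidises D-amino acids, was at 7.23, 5.07 and 12.67 TPM in mutant RPE and 47.51, 50.79 and 71.16 TPM in wild-type RPE (log2 change -2.91, adjusted p = 0.0353). SMYD1 (ENSDARG00000009280), a methyltransferase known from muscle, was at 20.22, 14.53 and 30.88 TPM in mutants and 123.92, 117.7 and 171.69 TPM in wild type (-2.81, adjusted p = 0.0295). The skeletal muscle markers summed to 73.8 to 111.9 TPM in mutant RPE and 92.7 to 654.6 TPM in wild-type RPE. The red-cell markers differed as given above, but they include hbaa1 itself. Their part in the result was not tested. As these are bulk samples, fewer cells of a type and less RNA per cell cannot be told apart.

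The gene sult3st3 had 0 counts in all 3 mutant RPE libraries and was at 11.13, 12.26 and 25.08 TPM in wild-type RPE, at least 231-fold lower in mutants with a floor of 3 counts for the group (adjusted p = 0.0306). Its close relatives can share reads with it. Also called were slc2a11b, a sugar transporter of pigment cells in fish (119.06, 121.36 and 126.09 TPM in mutants, 183.44, 204.44 and 205.47 TPM in wild type, log2 change -0.92, SE 0.11), CREG1, a lysosomal glycoprotein (-1.45), ca9, a carbonic anhydrase (-1.99), MON1B, of endosome maturation (-1.76), the chaperone gene hsc70 (-1.30) and cyp2p9, a cytochrome P450 (-1.29). The remaining called genes were si:dkey-30k22.5 (-6.55), ENSDARG00000071651 (-2.65), ENSDARG00000061455 (-2.15), zgc:91968 (-2.09) and si:dkey-93h22.7 (-1.53). DESeq2 called 5 members higher and 76 lower, against 3.78% and 4.86% of all genes. The edgeR calls turned on single libraries. Without mutant library 21, 39 members were called lower and 2 higher, against 1.61% and 1.33% of all genes. Without mutant library 13, wild-type library 11 or wild-type library 13, 0 were called, and without mutant library 12 or wild-type library 12, 1.

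Within the visual cycle, 10 of 12 genes had negative log2 changes in mutant RPE, with a median of -1.03. The median of all members tested was -0.72, and the rule favoured negative values here. None passed edgeR's test, whereas DESeq2 called 7 lower and edgeR without mutant library 21 called 3 lower. Those fits called 4.86% and 1.61% of all genes lower, and many members of other roles as well. RPE65 was at 1055.1, 1108.09 and 1177.89 TPM in mutant RPE and 1861.49, 2006.47 and 6002.66 TPM in wild-type RPE (log2 change -1.75, adjusted p = 0.153). RGR, a second RPE opsin, was at 134.65, 138.02 and 317.91 TPM in mutants and 548.09, 594.62 and 1224.78 TPM in wild type (-2.17, adjusted p = 0.107). The groups did not overlap for either gene, and wild-type library 13, which also had the highest rod-marker sum, was the highest for both. CYP27C1, which turns vitamin A into the form that shifts visual pigments to red light, was at 26.98, 23.47 and 39.41 TPM in mutants and 126.29, 68.97 and 172.74 TPM in wild type (-2.21, adjusted p = 0.0601). DESeq2 called all 3 of these genes lower (adjusted p = 0.00501, 0.000259 and 3.77e-06).

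LRAT lay on the other side. It was at 198.97, 183.75 and 161.68 TPM in mutant RPE and 99.85, 143.69 and 103.13 TPM in wild-type RPE (0.49, adjusted p = 0.175). The groups did not overlap. Of 14 further visual cycle genes outside the 193, none was called in this comparison. The 12 members summed to 8330.6, 8378.8 and 13162.6 TPM in mutant RPE and 15138.8, 14572.4 and 24980.5 TPM in wild-type RPE.

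**Figure D3:**
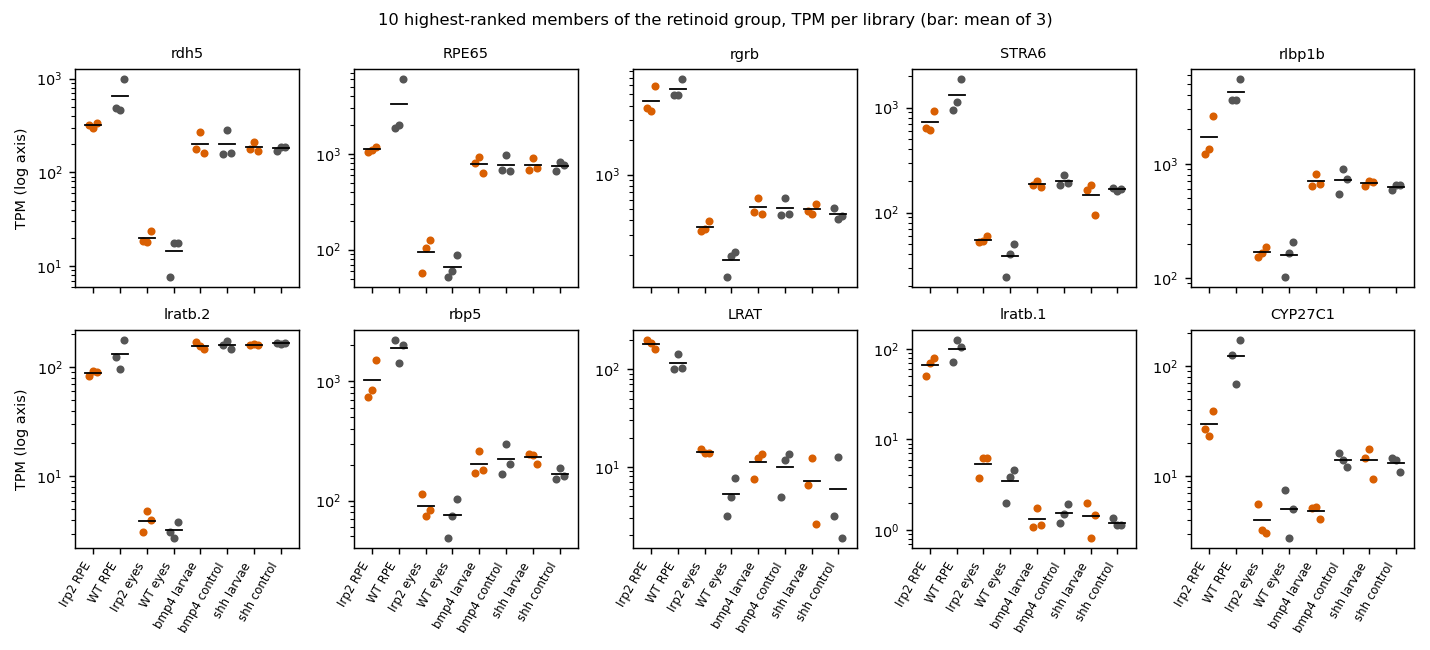
TPM (log axis) of the 10 highest-ranked retinoid and visual cycle genes in each library of the 1-month RPE and whole eyes and of the larval eyes, with mutant or transgenic libraries left of their controls and a bar at the mean of 3. RPE65 lies at 1055.1 to 1177.89 TPM in mutant RPE and 1861.49 to 6002.66 TPM in wild-type RPE.

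The pigment granule genes had a median log2 change of -0.07 over 11 genes in RPE. Single genes ranged from -0.74 to 0.42, with 3 positive, and none was called by edgeR or DESeq2. They summed to 5880.0, 7120.8 and 6223.1 TPM in mutant RPE and 6043.4, 6143.8 and 5131.6 TPM in wild-type RPE, with overlapping groups. pmelb, which encodes a fibril protein of the pigment granule, was at 2931.21, 3265.01 and 2805.71 TPM in mutants and 2119.63, 2492.87 and 1548.17 TPM in wild type (0.42, adjusted p = 0.253). Signals and transcription factors had a median of -0.08 over 15 genes, and transport genes -0.33 over 30. bmp16, a BMP ligand of fish, was at 53.81, 50.14 and 63.6 TPM in mutants and 85.4, 91.04 and 76.46 TPM in wild type (-0.75, adjusted p = 0.062). SHH (ENSDARG00000038867), a hedgehog ligand, was at 42.89, 38.59 and 68.09 TPM in mutants and 73.52, 73.71 and 81.59 TPM in wild type (-0.77, adjusted p = 0.202). MYRF, a membrane-bound transcription factor, was at 60.1, 77.06 and 121.52 TPM in mutants and 34.9, 50.56 and 48.52 TPM in wild type (0.80, adjusted p = 0.268). For each of these 3 genes the groups did not overlap, and none passed edgeR's test. DESeq2 called bmp16 lower (adjusted p = 0.000232), and edgeR without mutant library 21 called bmp16 and SHH lower (adjusted p = 0.0317 and 0.0275).

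Among lipid genes, FABP1 was at 320.3, 254.96 and 624.44 TPM in mutant RPE and 2014.43, 1626.84 and 2784.9 TPM in wild-type RPE (-2.58, adjusted p = 0.0517). Outside the 193 genes, 3 of 19 carotenoid and lipid uptake genes tested were called lower and 0 higher in mutant RPE by edgeR, against 0.798% lower and 0.574% higher among all genes. The 3 genes were both copies of BCO2, a carotenoid-cleaving enzyme (ENSDARG00000041715, -4.04, and ENSDARG00000055722, -0.94), and apoa1b (-3.46), an apolipoprotein. Their list was chosen with earlier results of these data known, so nothing is read from its count of calls. All 8 iridophore genes among the members had negative changes, with a median of -0.79. None was called by edgeR and 4 were called lower by DESeq2, which called 4.86% of all genes lower and many other members too. Among them, pnp4a, a purine-metabolism gene that marks iridophores, was at 188.82, 286.77 and 168.96 TPM in mutants and 349.91, 326.51 and 286.57 TPM in wild type. Of the 14 red-cell genes, 1 was positive, and their median was -1.2.

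Whole eyes at 1 month had no part in the choice of the members, and here the members leaned the other way. Of 185 members tested, 5 were higher in mutant eyes and 1 lower, against 0.374% higher and 0.56% lower among all genes (edgeR, adjusted p under 0.05). The median log2 change was 0.32, against 0.01 for all genes, and 128 were positive. Every mutant library exceeded every wild-type library for 55 members and lay below for 10, against 10.0% and 10.4% of all genes. Transport genes were positive in 28 of 30, pigment granule genes in 10 of 11, signals and transcription factors in 12 of 15 and retinoid genes in 9 of 12, with medians of 0.52, 0.52, 0.51 and 0.38. Red-cell genes were positive in 2 of 14, with a median of -0.35.

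The 6 calls spanned several functions. ebi3, a subunit of interleukins, was at 2.51, 3.85 and 6.45 TPM in mutant eyes and 0.29, 0.33 and 0.81 TPM in wild-type eyes (log2 change 3.06, SE 0.52, adjusted p = 0.0466). The amino acid exchanger slc7a8b was at 21.65, 17.07 and 26.01 TPM in mutant eyes and 7.42, 6.78 and 9.53 TPM in wild-type eyes (1.34, SE 0.16, adjusted p = 0.0186). In both genes each mutant library was above each wild-type library, and in RPE itself both had higher levels in each mutant library as well. selenou1b, a selenoprotein gene of fish, had a log2 change of 1.29 (SE 0.18, adjusted p = 0.0278), and ugt5e1, a glucuronosyltransferase gene, of 1.23 (SE 0.16, adjusted p = 0.0278).

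The gene called lower was ncam3, of a family of neural cell adhesion molecules. It was at 20.39, 24.87 and 23.13 TPM in mutant eyes and 42.27, 43.22 and 46.89 TPM in wild-type eyes (-1.04, SE 0.15, adjusted p = 0.0314). In retina it was at 0.73, 0.28 and 0.73 TPM in mutants and 2.1, 1.68 and 2.81 TPM in wild type (-1.94, adjusted p = 0.00936), and in sclera at 8.24, 11.8 and 13.44 TPM in mutants and 76.79, 70.94 and 25.81 TPM in wild type (-2.53, adjusted p = 0.0272). In RPE the levels were 203.94, 403.39 and 407.44 TPM in mutants and 894.95, 1192.91 and 883.8 TPM in wild type (-1.70, adjusted p = 0.0564). The groups did not overlap in any of the 4 samplings, and 3 passed edgeR's test.

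Several members had non-overlapping groups in whole eyes and missed the threshold in edgeR's test, while DESeq2 called them higher. Examples are pmelb, ambp, LRAT and rgrb, with edgeR values first. pmelb was at 188.74, 127.51 and 132.6 TPM in mutant eyes and 42.44, 53.08 and 83.21 TPM in wild-type eyes (1.45, adjusted p = 0.0552). ambp was at 115.26, 129.53 and 123.41 TPM in mutant eyes and 24.42, 50.99 and 53.1 TPM in wild-type eyes (1.46, adjusted p = 0.0765). LRAT was at 15.4, 13.85 and 13.8 TPM in mutant eyes and 3.11, 4.96 and 7.66 TPM in wild-type eyes (1.36, adjusted p = 0.0946). rgrb was at 325.42, 333.99 and 397.49 TPM in mutant eyes and 127.53, 195.17 and 212.58 TPM in wild-type eyes (0.88, adjusted p = 0.116). The adjusted p of DESeq2 lay between 7.86e-06 for pmelb and 0.00656 for rgrb. RPE65 overlapped (0.43, adjusted p = 0.649). It was at 56.79, 103.46 and 124.96 TPM in mutant eyes and 51.68, 59.41 and 88.58 TPM in wild-type eyes. In mutant RPE, DESeq2 called none of pmelb, ambp, LRAT and rgrb. The log2 changes there were 0.43, -0.59, 0.50 and -0.49 in that order.

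Of the human small-eye genes, MYRF and TMEM98 had non-overlapping groups in whole eyes. MYRF was at 9.8, 4.17 and 8.35 TPM in mutant eyes and 1.65, 2.09 and 2.52 TPM in wild-type eyes (1.68, adjusted p = 0.0506). TMEM98, a membrane protein, was at 10.37, 6.52 and 8.67 TPM in mutant eyes and 3.22, 2.53 and 4.59 TPM in wild-type eyes (1.21, adjusted p = 0.066). DESeq2 called both higher (adjusted p = 8.97e-06 and 0.0011). MFRP, a frizzled-related membrane protein, was at 1.67, 1.18 and 2.03 TPM in mutant eyes and 0.49, 0.37 and 1.18 TPM in wild-type eyes. Its groups met (1.17, adjusted p = 0.283). In mutant RPE, DESeq2 called none of these genes. The log2 changes there were 0.81 for MYRF (adjusted p = 0.115), -0.07 for TMEM98 (0.80) and 0.17 for MFRP (0.718). In whole eyes too, a larger share of RPE cells and more RNA per cell cannot be told apart.

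The whole-eye calls moved with the library set. Without mutant eye library 1, 10 members were called higher and 3 lower, without mutant eye library 3, 0 and 0, and without any other library 1 to 4 higher. No share of all genes is given for these fits, so their counts only show how far the calls moved. DESeq2 called 30 higher and 3 lower, against 2.21% and 2.62% of all genes. The 112 genes taken by the rule in both genotypes had a median of 0.51 in whole eyes, and the 81 taken in mutants and not in wild type had 0.17. The 81 taken in wild type and not in mutants had 0.11. Rod markers summed to 27997.6 to 29876.7 TPM in mutant eyes and 29329.6 to 32645.3 TPM in wild-type eyes, cone markers to 28707.0 to 36407.9 TPM in mutant eyes and 26697.4 to 30021.0 TPM in wild-type eyes, and red-cell markers to 960.2 to 2020.0 TPM in mutant eyes and 2374.2 to 3459.3 TPM in wild-type eyes. Their part in the result was not tested.

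**Figure D4:**
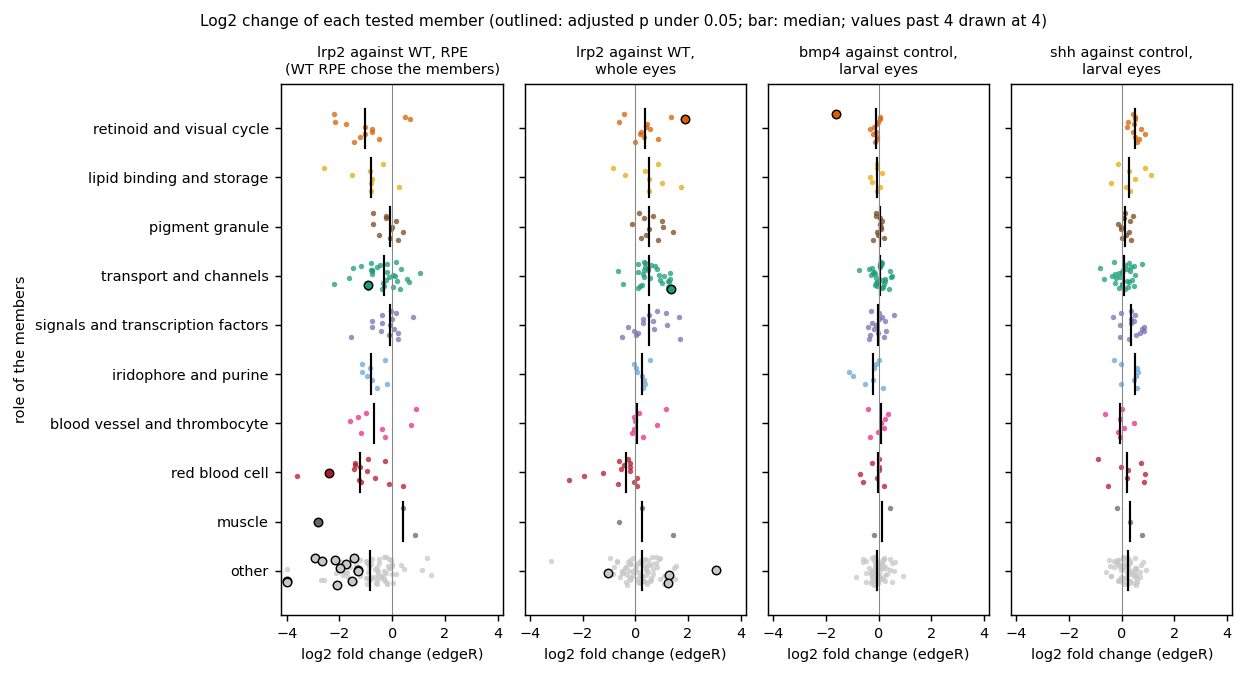
Log2 change of each member (points, edgeR on expected counts) by role in RPE, whole eyes, bmp4 and shh larval eyes, with the median as a bar, calls at an adjusted p under 0.05 outlined and values past 4 drawn at 4. The retinoid genes have medians of -1.03 in RPE, 0.38 in whole eyes, -0.08 with the bmp4 transgene and 0.5 with the shh transgene.

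The difference between the lrp2 effect in RPE and that in whole eyes was tested with an interaction contrast. Of 192 members, 0 were called in either direction, against 0.0791% higher and 0.0527% lower among all genes, although 103 (53.6%) had an unadjusted p under 0.05, against 8.87% of all genes. DESeq2 called 0 higher and 28 lower, against 0.721% and 0.953% of all genes. The median difference was -1.03, with 177 negative. Since the rule used wild-type RPE, a lean to negative values was built in.

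In retina the rule took genes that were low in wild type, so it favoured higher values in mutants. Of 151 members tested, 16 were higher in mutants and 8 lower, against 8.13% and 11.3% of all genes. The median log2 change was 0.28, against -0.01 for all genes. Every mutant library was above every wild-type library for 31 members and below for 14, against 18.5% and 21.2% of all genes. Pigment granule genes had 3 higher and 1 lower among 10 tested, including GPR143, a receptor of the pigment granule, at 9.33, 9.04 and 7.48 TPM in mutant retina and 4.1, 2.7 and 3.49 TPM in wild-type retina (1.2, adjusted p = 0.00214). The other higher ones were TSPAN10 (1.37) and tspan36 (0.93), tetraspanins, and the lower was TRPM1 (-0.31), a cation channel that bipolar neurons of the retina also express. mb, the myoglobin gene, was at 66.47, 59.91 and 50.71 TPM in mutant retina and 24.14, 20.37 and 26.93 TPM in wild-type retina (1.28, adjusted p = 0.000304). MYRF (0.65, adjusted p = 0.0117), slc7a8b (0.73) and selenou1b (1.05) were higher in mutant retina. For these and the other higher genes named here, the rule favoured that direction.

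In sclera with choroid the rule also took genes that were low in wild type, so it favoured higher values in mutants. Of 168 members tested, 0 were higher in mutants and 3 lower, against 2.81% and 3.82% of all genes, with a median of 0.04. The groups did not overlap for 18 members higher and 26 lower, against 15.6% and 16.8% of all genes. On the log2(TPM + 1) scale, the members' median was 0.12 and that of all genes 0.14. The 3 were ncam3, FABP1 (5.36, 3.52 and 2.48 TPM in mutant sclera, 12.95, 16.3 and 9.22 TPM in wild-type sclera, -1.93, adjusted p = 0.0245) and pip5k1ba, a phosphoinositide kinase gene (-0.91, adjusted p = 0.0353). Without wild-type sclera library 13, 6 were called lower, a count given without a share of all genes and not read as a result.

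**Figure D5:**
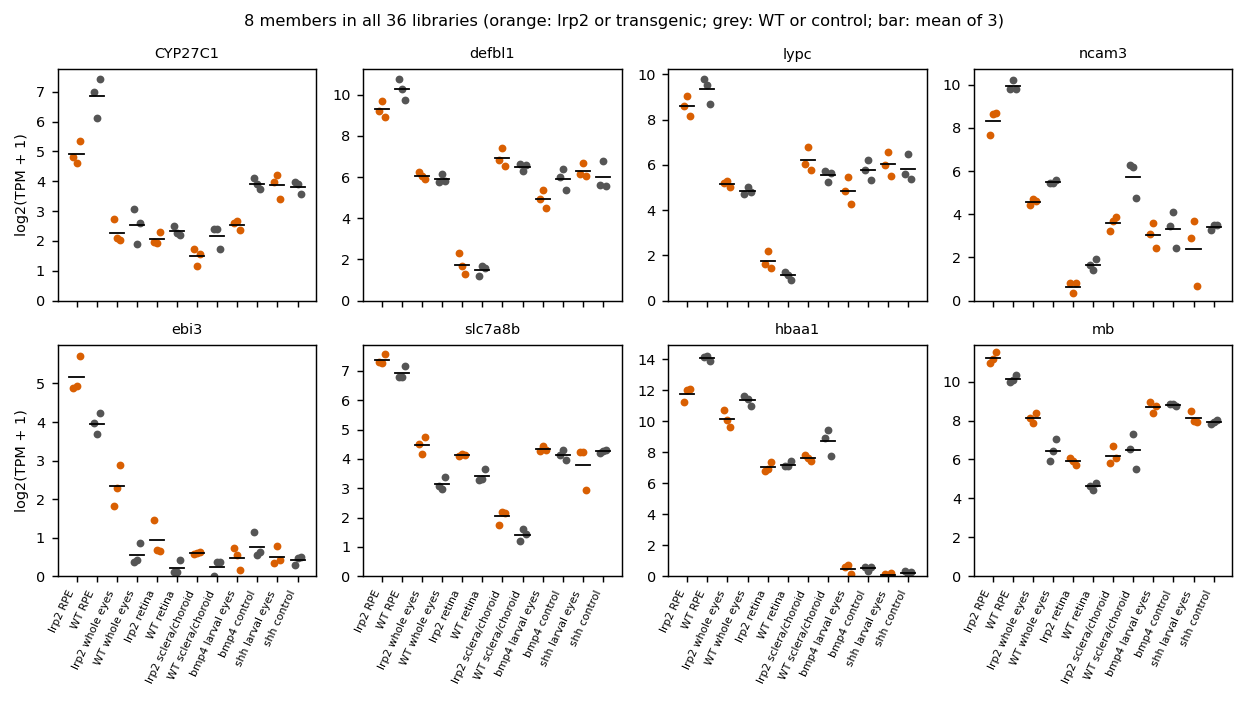
Level, as log2(TPM + 1), of CYP27C1, defbl1, lypc, ncam3, ebi3, slc7a8b, hbaa1 and mb in every library, with mutant or transgenic groups left of their controls and a bar at the mean of 3. CYP27C1 is at 4.13 to 5.3 TPM in bmp4 transgenic eyes and 12.25 to 16.21 TPM in their controls, and ncam3 is lower in mutants in all 4 samplings.

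Larval eyes at 5 days gave 2 further comparisons that were independent of the rule. In the 6 control libraries the median member was at 5.74 TPM, and 76 members had a median of at least 10 TPM. RPE65 had a median of 716.2 TPM there, rlbp1b 653.06, rgrb 449.55 and STRA6 177.49 TPM. The retinoid genes had a median level of 176.78 TPM in larval controls, against 27.66 TPM in wild-type eyes of 1 month, and for 10 of 12 all 6 larval libraries were above the 1-month median. Pigment granule genes had a median of 43.6 TPM in larval controls and 9.22 TPM in wild-type eyes of 1 month, with 9 of 11 above. These tables were normalized separately, and whole eyes of different ages hold different shares of each tissue.

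With the bmp4 transgene, the members' median log2 change was -0.05. Of 166 tested, 0 were higher and 1 lower, against 0.0808% and 0.0238% of all genes. Groups without overlap numbered 8 higher and 11 lower, against 4.7% and 4.79%. In a BMP pathway list chosen with earlier results of these data known, 10 of 48 genes were higher, none of them a member. Because of that choice, the count is a description only. The member called lower was CYP27C1, with 5.12, 5.3 and 4.13 TPM in transgenic eyes and 16.21, 14.01 and 12.25 TPM in control eyes. The groups were far apart, with a log2 change of -1.62 (SE 0.12, adjusted p = 0.00425, edgeR). It kept its direction in all 12 alternatives and lost the call in 2 of them, with an adjusted p of at most 0.061. With the shh transgene it was at 14.68, 17.65 and 9.55 TPM, against 14.59, 14.0 and 10.86 TPM in controls, with overlapping groups. The difference between the lines, an interaction contrast, was -2.04 (SE 0.22, adjusted p = 0.0146), the single call among 171 members, against 0.00458% lower and 0.0183% higher among all genes. It lost the call in 8 of 15 alternatives, and its adjusted p was highest, 0.351, with the replicate block.

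Same-numbered transgenic and control larval libraries varied together, so the number was also fitted as a block. With the replicate block, 1 member was higher and 7 lower in bmp4 transgenic eyes, against 1.58% and 1.31% of all genes. Besides CYP27C1 (-1.62, adjusted p = 1.66e-06), the lower ones included defbl1 and lypc, from the group of 8 iridophore genes. The rest of that group was not called, with log2 changes from -0.54 (prtfdc1a) to 0.17 (uraha). defbl1, a beta-defensin-like gene, was at 29.59, 39.77 and 21.17 TPM in transgenic eyes and 62.9, 83.75 and 39.99 TPM in control eyes. lypc, a Ly6-type gene, was at 27.7, 42.39 and 18.45 TPM in transgenic eyes and 54.28, 72.29 and 38.77 TPM in control eyes. Highest transgenic and lowest control libraries nearly met for defbl1 and overlapped for lypc, while each transgenic library was below its same-numbered control. The blocked log2 changes were -1.10 and -1.0 (adjusted p = 7.6e-06 and 4.1e-05). Without the block their adjusted p were 0.518 and 0.957.

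The other blocked calls were SLC16A9 (ENSDARG00000013926), of the monocarboxylate transporter family (-0.74, adjusted p = 0.00374), hbae1.2 (-0.62), ENSDARG00000044212 (-0.50), and ESM1, a proteoglycan of vessel lining (-0.40), all lower. MITF (ENSDARG00000003732), a master transcription factor of pigment cells, was higher, with 10.79, 11.71 and 10.65 TPM in transgenic eyes and 5.86, 9.02 and 5.53 TPM in control eyes (0.61, adjusted p = 0.0187). Each transgenic library exceeded each control library. The pigment granule and retinoid genes other than CYP27C1 had no call with or without the block.

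With the shh transgene, 0 of 167 members were called in either direction by edgeR, with or without the block, against 0.0% of all genes. Without overlap between groups were 13 higher and 3 lower, against 4.49% and 3.79%. At an unadjusted p under 0.05 in edgeR's test there were 5 members (2.99%, against 0.543% of all genes). Both shares lie under the 5% that such a threshold passes when no gene changes. Of the 5 members, foxf2a, rbp5, hbae1.2 and FABP1 were positive and EPOR negative. DESeq2 also called 0. The median log2 change was 0.23, against 0.0 for all genes, and on the log2(TPM + 1) scale it was -0.13, against -0.27. All 12 retinoid genes had positive changes on the first scale, with a median of 0.5. SHH (ENSDARG00000068567), which is no member, was at 31.92, 94.58 and 14.4 TPM in transgenic eyes and 4.19, 11.34 and 4.19 TPM in controls. The lowest transgenic value was in library 13, the one that stood apart.

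Some globins among the red-cell members differed in level between 1-month RPE and larval eyes. These samples differ in tissue as well as in age, and their tables were normalized separately. hbaa1 and HBE1 (ENSDARG00000089087), at 17801.89 and 28713.4 TPM in the wild-type RPE medians, were at 0.00 to 0.55 and 0.23 to 0.96 TPM in the 6 larval control libraries. The embryonic globin hbae1.2 had a median of 157.36 TPM in the larval controls and hbae1.3 of 130.325 TPM, against 11.71 and 10.41 TPM in wild-type RPE of 1 month.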

How the data were processed

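The authors deposited expected counts and TPM per gene for all 36 libraries in 3 sets of tables (1 month, bmp4, shh), each normalized separately, and TPM scales a level by gene length and library total. Per the submitters' processing notes, Bowtie2, HISAT and the build GRCz10 were used. Which tool did what, and how strand was treated, is not given in the sources used here. Members with close copies or overlapping neighbours may have shared reads. A table of names gave a symbol to 26108 of 31916 identifiers and to 186 of the 193 members.

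Expected counts were rounded and tested with edgeR 4.0.16 (R 4.3.3), using filterByExpr, TMM scaling and a robust quasi-likelihood F test on the 2 groups compared, with Benjamini-Hochberg adjustment over all genes tested and a call at an adjusted p under 0.05. SE were taken from the F statistic. The 9 dissected mutant libraries shared a fit, as did the 4 groups of each interaction contrast. The fits were also run on simulated counts with the same spread for every gene, so that run does not check calls that turn on single libraries. Alternatives used DESeq2 1.42.0, limma 3.58.1 on log2(TPM + 1) or log2(TPM + 0.1), other scaling, filters, ranking pseudocounts and lists, a replicate block, and each library left out. Scripts ran in Python 3.11.15.

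The members, the pathway and marker lists and the tests were chosen with earlier results of these data known. Named genes are the first 20 ranks, those next to the threshold, called members (up to 10 in each direction and comparison), members of pathway lists, the 10 lowest scores in mutants, and the 10 highest levels in wild-type RPE, wild-type eyes and larval controls. Others, such as ambp, mb and the small-eye genes, were named after their values were seen. A few members that this rule selects are not reported here. Roles were assigned by hand in the same way and carry no test.

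The replicate numbers come from the labels. Deviations of same-numbered larval libraries from their group means correlated at 0.566, 0.627 and 0.691 for bmp4 and 0.264, 0.374 and 0.254 for shh. The numbers were therefore taken as pairs in the fits with a replicate block. The main larval fits, including the main interaction contrast, had no block and left the pairing out. Libraries of a group differed beyond sampling noise in each pair (chi-square per degree of freedom at least 11.2), and all counted as samples.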

Additional observations from a re-analysis of the deposited data

Results flagged for a closer look

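The response of CYP27C1 was called different between the larval lines in the fit without the replicate block. Its log2 change with the bmp4 transgene minus that with the shh transgene was -2.04 (SE 0.22, adjusted p = 0.0146 by edgeR's interaction contrast over 12 libraries). In the bmp4 line each of 3 transgenic libraries was below each control, and in the shh line the groups overlapped. In edgeR's shh fit with the replicate block, its log2 change was 0.42 (adjusted p = 0.762). Part of the difference therefore lay in an uncalled positive value of the shh line. The median shh change of all genes was 0.0 in edgeR's main fit and -0.27 on log2(TPM + 1). The control groups of the lines were at 12.25 to 16.21 TPM for bmp4 and 10.86 to 14.59 TPM for shh. With the replicate block, which takes same-numbered libraries as pairs, the adjusted p was 0.351 and the difference was not called. Other alternatives lost the call too, as given above.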

How the results depend on the processing

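With each library left out in turn, members called higher and lower ranged over 0 to 10 and 0 to 3 in whole eyes, 0 to 2 and 0 to 39 in RPE, 10 to 16 and 5 to 12 in retina, and 0 to 1 and 0 to 6 in sclera, with 0 and 0 to 1 for bmp4, 0 and 0 for shh, 0 and 0 to 6 for RPE minus whole eyes, and 0 and 0 to 1 for bmp4 minus shh. Mutant RPE kept 185 to 186 members higher than retina and 180 to 186 higher than sclera, and 168 to 175 of the 193 members stayed in the list. DESeq2 called 30 higher and 3 lower in eyes, 5 and 76 in RPE, 8 and 14 in sclera, 2 lower for bmp4 and 28 lower for RPE minus whole eyes. Where no share of all genes is given above for a fit, its count only shows how far calls moved with the processing. Such a count is not read as a result about the members. A fit of all 24 libraries of 1 month called 17 higher in eyes, 1 higher and 56 lower in RPE, 2 lower in retina, and 11 and 8 in sclera. Limma on log2(TPM + 1) called 8 higher in eyes, 2 in RPE and 6 in sclera, and on log2(TPM + 0.1) 2 higher in RPE, 5 in sclera and 0 lower for bmp4. Without a filter, 10 were higher in eyes and 1 in RPE. The replicate block, where the 1-month numbers mark no known pair (correlations in eyes 0.329, 0.234 and 0.017), gave 17 higher and 4 lower in eyes, 0 lower in RPE, 1 lower in sclera, 1 higher and 7 lower for bmp4 and 0 lower for bmp4 minus shh. It changed no other of these counts by over 1.5 times. A ranking pseudocount of 10 kept 140 members and gave 1 higher and 8 lower in sclera, and 0.1 kept 176. Over the first 100 ranks, a shorter list by construction, 2 and 0 were called in eyes, 9 lower in RPE, 8 and 5 in retina, and 93 higher in mutant RPE than in either tissue. No named gene changed sign where either fit called it. Of the values for named genes, 6142 stayed on the same side of the threshold, 118 were newly past it and 179 no longer past it. Changes of sign without a call were not counted. The causes were not tested. With 3 libraries a group, 17543343 to 26708466 counts each and spread between libraries beyond sampling noise, small changes may have been missed.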

Other observations

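Of the 8 blood vessel and thrombocyte members, 2 had positive log2 changes in RPE, and the median was -0.69. DESeq2 called 4 of the 8 lower and 0 higher, against 4.86% and 3.78% of all genes. The rule favoured lower values in this comparison. PCDH12, a protocadherin of vessel lining, was at 140.35, 184.42 and 81.14 TPM in mutant RPE and 68.84, 87.14 and 64.18 TPM in wild-type RPE, and ESM1 was at 255.96, 372.36 and 127.06 TPM in mutants and 134.91, 91.2 and 123.65 TPM in wild type. GPR182, an atypical chemokine receptor of vessel lining, was at 33.97, 36.46 and 49.73 TPM in mutant RPE and 80.25, 95.81 and 145.63 TPM in wild-type RPE. The groups overlapped for PCDH12 and ESM1 and did not for GPR182, and none of the 3 passed edgeR's test, while DESeq2 called GPR182 lower (adjusted p = 3.51e-05). Endothelial markers summed to 1532.8 to 2398.9 TPM in mutant RPE and 1562.1 to 2402.4 TPM in wild-type RPE.

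Myoglobin (mb) was high in RPE while skeletal muscle markers were low there. It was at 2000.02, 2253.22 and 2930.62 TPM in mutant RPE and 1025.54, 1067.22 and 1272.23 TPM in wild-type RPE (log2 change 0.85, adjusted p = 0.0994, edgeR), beside muscle marker sums of 73.8 to 111.9 TPM in mutant RPE and 92.7 to 654.6 TPM in wild-type RPE. In whole eyes it was at 279.3, 234.4 and 338.99 TPM in mutants and 58.81, 86.51 and 129.42 TPM in wild type (1.44, adjusted p = 0.0688). DESeq2 called it higher in both (adjusted p = 0.00156 in RPE and 4.33e-05 in whole eyes). The groups did not overlap in RPE, whole eyes or retina, and overlapped in sclera. The 6 larval control libraries had a median of 345.3 TPM.

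Among transporters, slc23a4, of the ascorbate and nucleobase transporter family, was at 161.27, 190.51 and 184.48 TPM in mutant RPE and 187.37, 207.86 and 206.14 TPM in wild-type RPE, with a small overlap. In whole eyes it was at 13.15, 15.82 and 14.97 TPM in mutants and 5.37, 6.75 and 8.62 TPM in wild type, without overlap. foxl1, a forkhead transcription factor gene, was at 167.77, 189.61 and 123.92 TPM in mutant RPE and 165.4, 156.1 and 147.46 TPM in wild-type RPE, and its groups overlapped in whole eyes too.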
